A study of Mus musculus with 6 samples.

Results

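The genes studied here are 10 that coat the lipid droplet or set the turnover of the triglyceride inside it: Plin2, Plin4, Plin5, Cidea, Cideb, Cidec, Pnpla2, Pnpla3, G0s2 and Dgat2. They were taken by name from the 18820 genes that have at least 1 probe set paired with a single gene on the Affymetrix Mouse Gene 1.1 ST array, an array that measures transcripts with many short probes per gene. Each of the 10 had 1 such probe set. Liver RNA was measured in 6 female mice of C57BL/6J background, with 1 array per mouse and 3 mice in each group. CT mice carried the floxed estrogen receptor alpha (ERα) alleles, ERα fl/fl, without cre recombinase, and LERKO mice (Alb-cre/ERα fl/fl) carried the same alleles with cre. Cre is driven by the albumin promoter, which is active in hepatocytes. The paper names the liver cells other than hepatocytes as the likely source of the ERα that remains, and the arrays do not measure it by cell type. An effect of cre cannot be told apart from one of the missing receptor. The mice had free access to food, and neither their age nor any fast before collection is named for the arrays. The comparison asks whether the transcripts of droplet proteins differ in a liver whose hepatocytes lack ERα.

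Hepatocytes store surplus fatty acids as triglyceride in droplets bounded by a phospholipid monolayer and a coat of proteins. Perilipins cover the surface and limit the access of lipases, CIDE proteins join droplets and pass lipid from one to another, and the lipase ATGL, encoded by Pnpla2, removes the first fatty acid from triglyceride. Dgat2 catalyses the last step of triglyceride synthesis. In the liver these proteins are known for their part in fatty liver, in the release of fuel during fasting and in the lipid loading of very low density lipoprotein, and several of the genes, Plin2 among them, are known targets of the PPAR family of nuclear receptors.

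Esr1, the gene of ERα, was at 8.45, 8.78 and 8.29 in the CT mice and at 6.75, 7.06 and 6.77 in the LERKO mice, in the order of the replicate numbers. These values, like all those that follow, are signals of the robust multichip average (RMA) on the log2 scale, in which a step of 1 is a doubling. For Esr1 every LERKO mouse was below every CT mouse, with a log2 fold change of −1.65 (SE 0.15, adjusted p = 0.149 from limma), which matches the labels. The adjusted p for Esr1 was 0.0409 where a signal of 100 was required in all 6 arrays.

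A pair of arrays held transcripts of other organs. In CT 3 (CT replicate 3), 10 of 10 markers of the exocrine pancreas and 14 of 14 of skeletal muscle were at their highest of the 6 arrays, and in LERKO 2, 9 of 9 markers of the adrenal cortex were. The summed pancreas signal was 2291 in CT 3 and 145 to 163 in the other arrays. The muscle sum was 1608 in CT 3, 449 in LERKO 2 and 185 to 218 in the remaining arrays. The adrenal sum was 7469 in LERKO 2 beside 190 to 226. All 13 hepatocyte markers measured reached a signal of 100 in every array. Between 9452 and 9865 probe sets reached 100 in each array. Where a value of the 10 genes moved strongly without CT 3, LERKO 2 or both, the value without them is given too. Outside the 10 genes such values are given for some genes only.

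No difference between LERKO and CT liver passed the test for any of the 10 genes. Of the 10, 7 reached a signal of 100 in at least 1 array and were tested among the 10633 probe sets kept. Plin4, Cidea and Pnpla3 were below 100 in all arrays, and their values come from the same model fitted on the whole table of 35556 probe sets. Of the 7 genes kept, 0 had an unadjusted p under 0.05 from limma, beside 6.98% of all probe sets kept (4.89% of the whole table), and 0 passed after Benjamini-Hochberg adjustment, beside 0% of all probe sets kept. Of the 10 genes, 0 separated the groups, meaning that all LERKO mice lay on the same side of all CT mice, beside 10.3% of the whole table and 13.0% of the probe sets kept. The adjusted p values of the 10 genes from limma began at 0.786. With 3 mice against 3, an exact two-sided permutation test cannot give a p below 0.1, and over the 10 genes it gave 0.2 to 0.9. The labels name the samples of a group biological replicates, so the p values measure the spread between mice, and the number of arrays limits the precision. In a whole tissue, fewer cells of a type and less RNA per cell cannot be told apart.

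**Figure D1:**
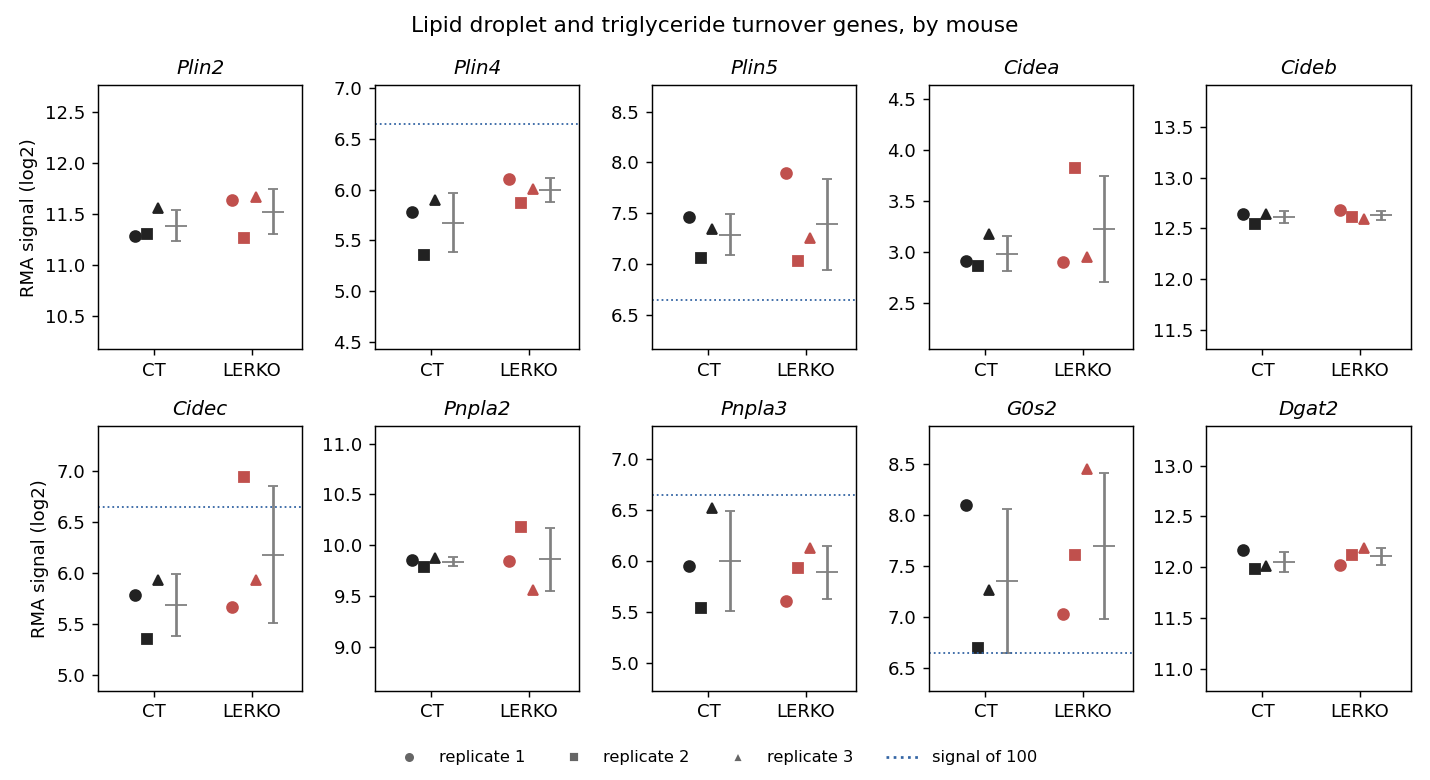
RMA signal on the log2 scale (vertical axis) of the 10 genes in the 3 CT (black) and 3 LERKO (red) mice, with the mean and SD of each group in grey and a dotted line at a signal of 100. Every panel spans the same range of log2 units around its own centre, so that the narrow spread of Cideb and Dgat2 can be set beside the wide spread of G0s2, and in each panel the values of the groups overlap.

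The coat genes were read first. Plin2 encodes perilipin 2, the coat protein that marks droplets in most cells and in the liver follows their lipid content. Its probe set 10514221 was at 11.29, 11.30 and 11.56 in CT 1, 2 and 3 and at 11.64, 11.27 and 11.67 in LERKO 1, 2 and 3. The lowest of the 6 values belonged to LERKO 2, the other LERKO mice held the highest, and CT 3 lay close to them. LERKO and CT differed by a log2 fold change of 0.14 (SE 0.14, 95% confidence interval −0.18 to 0.47, adjusted p = 0.829 from limma), which is 1.10-fold with an interval from 0.881 to 1.38. The groups overlapped through LERKO 2 alone, and CT 3 was the CT mouse nearest to the other LERKO mice. These are also the arrays with transcripts of other organs. With 1 array left out the log2 fold change of Plin2 ran from 0.068 (without LERKO 3, unadjusted p = 0.668 from limma) to 0.27 (without LERKO 2, unadjusted p = 0.0555 and adjusted p = 0.654), and it was 0.086 without LERKO 1. Without both, the log2 fold change of Plin2 was 0.36 (SE 0.087, 95% confidence interval 0.13 to 0.58, unadjusted p = 0.00996 and adjusted p = 0.392 from limma), with 2 mice in each group. In that fit 10.8% of all probe sets had an unadjusted p under 0.05. Whether the RNA of other organs has a part in the Plin2 values of CT 3 and LERKO 2 was not tested.

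Plin5 encodes perilipin 5, a coat protein of tissues that burn fat, which brings droplets and mitochondria together and binds ATGL and its activator. Its probe set 10451943 was at 7.46, 7.06 and 7.34 in the CT mice and at 7.89, 7.03 and 7.26 in the LERKO mice. LERKO 1 stood above all others, and the remaining LERKO mice lay within or just below the CT range. The log2 fold change was 0.10 (SE 0.23, 95% confidence interval −0.44 to 0.65, adjusted p = 0.936 from limma), without LERKO 1 it was −0.15, and without CT 3 and LERKO 2 it was 0.31. The spread of Plin5 between mice of a group was larger than that of 93.7% of the probe sets kept.

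Plin4 encodes perilipin 4, which coats young droplets in fat and muscle. It is the direct neighbour of Plin5 in the genome, with 0 genes between them. Its probe set 10451932 was below a signal of 100 in every array, at 5.78, 5.35 and 5.90 in the CT mice and at 6.10, 5.87 and 6.01 in the LERKO mice. The groups overlapped only through LERKO 2, which lay between CT 1 and CT 3. Its log2 fold change was 0.32 (SE 0.16, 95% confidence interval −0.06 to 0.70), with an unadjusted p of 0.0892 and an adjusted p of 0.944 from limma. It was 0.43 without CT 3 (unadjusted p = 0.0384, adjusted p = 0.587 from limma), 0.49 without CT 3 and LERKO 2 (unadjusted p = 0.0446, adjusted p = 0.631 from limma) and 0.16 without CT 2.

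The promoter sequences of the coat genes are shown for the letters that nuclear receptors read. Receptors such as ERα and PPARα bind DNA through pairs of the element AGGTCA, ERα to a palindrome of it and PPARα with its partner RXR to a direct repeat. Windows of 300 bases, from 250 before to 50 after a start site, came from RefSeq on build GRCm38.p6 and held 8 of the 10 genes in 10 windows. The single element was found on either strand in 3 of the 10 windows, beside 16.3% of the 32851 windows of the genome. These 3 windows belong to 2 of the 8 genes, Plin2 and Plin5. The element is shown in capitals with 25 bases on each side, and both stretches are written on the strand of the gene. In Plin2 the letters lie at chr4:86670247-86670302 (minus strand), in a stretch whose element is 218 bases before the start site and reads on the opposite strand, and in Plin5 at chr17:56117688-56117743 (minus strand), 170 bases before the start site and in the direction of the gene.
Plin2: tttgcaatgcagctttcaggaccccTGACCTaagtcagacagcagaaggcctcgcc
Plin5: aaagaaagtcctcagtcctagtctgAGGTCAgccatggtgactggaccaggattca
A second start site of Plin5 has the element 14 bases after it. The direct repeat AGGTCANAGGTCA and the palindrome GGTCANNNTGACC were each found in 0 of the 10 windows, beside 0.0396% and 0.0700% of all windows. The search overlaps in its letters, since both longer motifs contain the element or most of it. A match says only that these letters stand in the window, and the lack of a match says nothing about binding elsewhere. The stretches were chosen after the values of the genes were seen.

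Among the droplet fusion genes, the hepatocyte form varied little between mice, and the forms known from fat cells reached a signal of 100 in at most 1 array. Cideb, the CIDE protein of hepatocytes, serves the lipid loading of very low density lipoprotein and the growth of droplets. Its probe set 10420165 was at 12.64, 12.54 and 12.65 in the CT mice and at 12.68, 12.62 and 12.59 in the LERKO mice. All 6 values lay within 0.14 log2 units, or 1.10-fold, and the groups were interleaved. The log2 fold change was 0.019 (SE 0.069, adjusted p = 0.965 from limma), and the 95% confidence interval of the fold ran from 0.904 to 1.14. The spread of Cideb within groups exceeded that of 9.18% of the probe sets kept.

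Cidec, also called FSP27, makes the single large droplet of white fat cells and is induced in fatty liver. Its probe set 10546929 was at 5.78, 5.35 and 5.93 in the CT mice and at 5.66, 6.94 and 5.93 in the LERKO mice. Only LERKO 2 reached a signal of 100, and the gene was kept through that array alone, while the other LERKO mice lay inside the CT range. As a log2 fold change the difference was 0.49 (SE 0.34, 95% confidence interval −0.32 to 1.30, adjusted p = 0.786 from limma), and it was 0.11 without LERKO 2. Cidea, the CIDE protein of brown fat cells, showed the same mouse on top at a level far below 100. Its probe set 10456392 was at 2.91, 2.85 and 3.18 in the CT mice and at 2.90, 3.82 and 2.95 in the LERKO mice. The log2 fold change of Cidea was 0.24 (SE 0.26, adjusted p = 0.945 from limma) and turned to −0.057 without LERKO 2.

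Markers of fat cells were also at their highest in LERKO 2. Of 12 adipocyte markers with a probe set, Cidec left out, 8 were highest in LERKO 2 and 5 reached a signal of 100 in any array, and their mean log2 signal was 6.11 in LERKO 2 beside 5.27 to 5.48 in the other arrays. Their summed signal was 9207 in LERKO 2 and 8070 to 8977 elsewhere, a sum dominated by Car3, which hepatocytes also express. Without Car3 it was 843 beside 458 to 552. Of the defining genes, singled out after their values were seen, Retn was at 7.09 in LERKO 2 and at most 4.74 elsewhere. Fabp4 was at 6.98 beside at most 5.78, while Plin1 and Adipoq stayed below 100 in LERKO 2 as well, at 5.89 and 5.37. Lep, which encodes the fat cell hormone leptin, was at 3.42 in LERKO 2, inside the range of the other mice. Of 8 brown fat cell markers, Cidea left out, the mean log2 signal was 5.61 in LERKO 2, 5.24 in CT 3 and 4.61 to 4.88 in the other arrays, and 2 of the 8 were highest in LERKO 2. These were Ucp1, the uncoupling protein of brown fat, at 5.89 in LERKO 2 and at most 3.29 elsewhere, and Cox8b, at 6.44 in LERKO 2 and 6.00 in CT 3, and both stayed below a signal of 100. Prdm16, a factor of brown fat identity, was lowest in LERKO 2. The part of fat cell RNA in the Cidec and Cidea values was not tested.

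**Figure D2:**
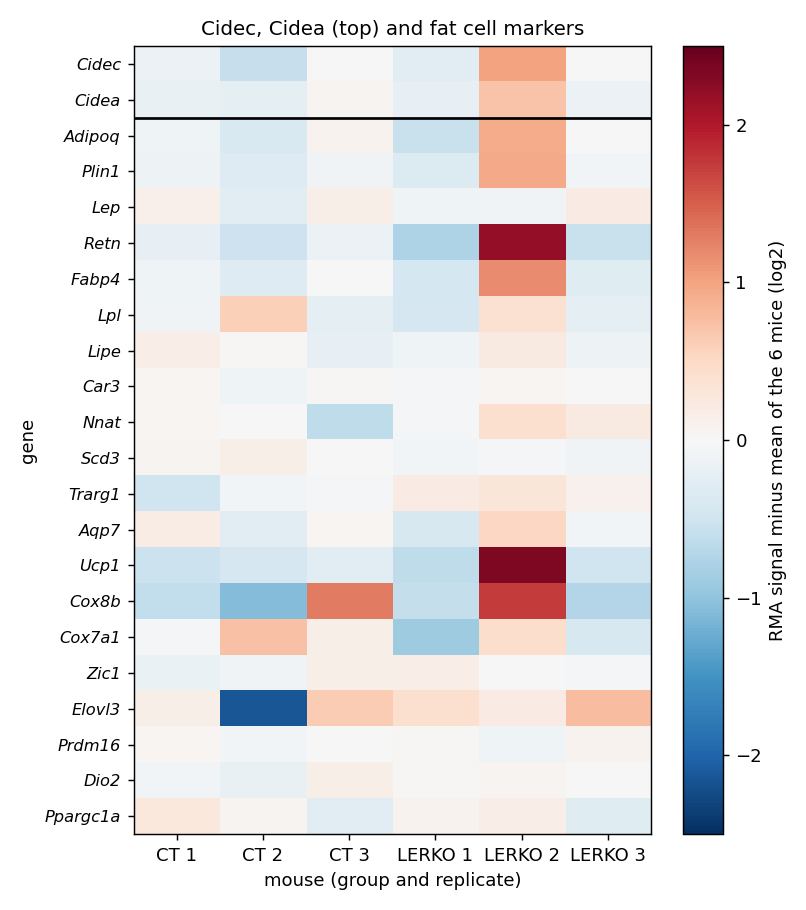
RMA signal of Cidec and Cidea (above the line) and of the white and brown fat cell markers (below it) in each of the 6 mice (horizontal axis), as the difference in log2 units from the mean of the 6 mice. In the LERKO 2 column Cidec, Cidea, Adipoq, Plin1, Retn, Fabp4, Ucp1 and Cox8b lie above the mean of the 6 mice, as Cox8b does in CT 3, and Elovl3 lies below it in CT 2.

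The lipase and its relatives came next. Pnpla2 encodes ATGL. Its probe set 10558921 was at 9.86, 9.79 and 9.88 in the CT mice and at 9.84, 10.18 and 9.56 in the LERKO mice. The CT mice lay close together, and the LERKO mice spread to both sides of them, with LERKO 2 highest and LERKO 3 lowest of the 6. LERKO against CT gave a log2 fold change of 0.021 (SE 0.15, 95% confidence interval −0.35 to 0.39, adjusted p = 0.986 from limma), and its sign turned to −0.14 without LERKO 2. Pnpla3, a relative of ATGL that sits on droplets and is fed by lipogenic signals, was below 100 in all arrays. Its probe set 10425822 was at 5.95, 5.53 and 6.52 in the CT mice and at 5.60, 5.93 and 6.12 in the LERKO mice. The LERKO mice lay within the CT range, with a log2 fold change of −0.11 (SE 0.26, adjusted p = 0.977 from limma) that turned to 0.14 without CT 3.

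G0s2, a small protein that binds ATGL and blocks it, varied more between mice than any other of the 10 genes. Its probe set 10361246 was at 8.09, 6.69 and 7.26 in the CT mice and at 7.03, 7.61 and 8.45 in the LERKO mice. The 6 values spanned 1.76 log2 units, a 3.38-fold range, and the mice of both genotypes were mixed along it. The spread of G0s2 within groups was larger than that of 98.9% of the probe sets kept. The log2 fold change was 0.35 (SE 0.46, adjusted p = 0.879 from limma), and the 95% confidence interval of the fold, 0.597 to 2.71, leaves room for a change in either direction. Without LERKO 3 the log2 fold change was −0.032. The order of the mice differed between the lipase and its inhibitor: LERKO 3 was lowest for Pnpla2 and highest for G0s2, while CT 2, the lowest for G0s2, lay close to the other CT mice for Pnpla2.

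Dgat2, which joins the last fatty acid to diacylglycerol, also varied little between mice. Its probe set 10565775 was at 12.17, 11.99 and 12.01 in the CT mice and at 12.02, 12.12 and 12.19 in the LERKO mice. The groups overlapped, and the whole range was 1.15-fold. Its log2 fold change was 0.055 (SE 0.083, adjusted p = 0.898 from limma), with a 95% confidence interval of the fold from 0.905 to 1.19. Dgat1, the other enzyme of this step, named after its values were seen, had a log2 fold change of 0.065 (SE 0.084, adjusted p = 0.876 from limma).

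The intervals show what these 6 arrays could have missed. For 8 of the 10 genes the 95% confidence interval stayed within a 2-fold change in either direction, and for 4 of the 10, Plin2, Cideb, Pnpla2 and Dgat2, within 1.5-fold. Plin4, Cidea and Pnpla3 are among the 8, but they were below a signal of 100 in all arrays. Background limits their values, so their intervals may not cover a change that the arrays missed. For Cidec and G0s2 the interval reached past 2-fold on the side of higher levels in LERKO liver. Of the 10 log2 fold changes, 9 were above 0, beside 51.0% of the whole table, with a median of 0.12 beside 0.0037 for the whole table. For the 7 genes kept, the median was 0.10 beside −0.0099 for all probe sets kept, and it was 0.018 without CT 2 and 0.23 without CT 3 and LERKO 2 together. Cidec is among the 7 through LERKO 2 alone, the array in which it is highest. With a signal of 100 required in all 6 arrays, 6 of the genes remained and their median was 0.080. CT 2 was the lowest mouse for 7 of the 10 genes (Plin4, Cidea, Cideb, Cidec, Pnpla3, G0s2 and Dgat2), beside 19.1% of the whole table and 16.4% of the probe sets kept that were lowest in CT 2. In the same mouse the summed signal of 12 Kupffer cell markers was 4046 beside 5147 to 6528 in the others, and 11 of the 12 were lowest there. The sums of sinusoidal endothelium (4270 beside 4537 to 5476) and stellate cell markers (4964 beside 5299 to 6812) were also lowest in CT 2. Of 10 endothelial markers 6 were lowest in CT 2 and 3 in LERKO 1, and of 11 stellate markers 4 and 6. The mean log2 signal of both lists was lowest in LERKO 1, at 8.36 and 7.58, beside 8.43 and 7.63 in CT 2. The sums of hepatocyte (107200 beside 100100 to 103900) and bile duct cell markers (1492 beside 1102 to 1195) were highest in CT 2. Of 6 bile duct cell markers, however, 2 were highest and 2 lowest in CT 2. Their mean log2 signal was 5.44 in CT 2 and 5.57 in CT 1. The part of this mouse's cell makeup in the values of the 10 genes was not tested.

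**Figure D3:**
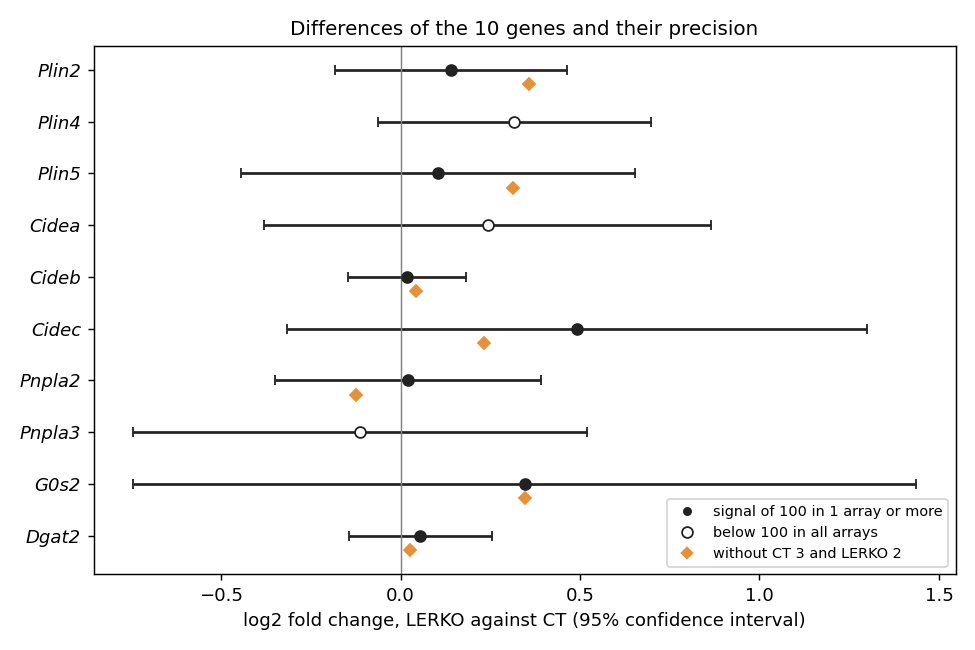
Log2 fold change of the 10 genes, LERKO against CT (horizontal axis) with the 95% confidence interval from limma, filled for the 7 genes kept and open for the 3 below a signal of 100 in all arrays. Diamonds give the values of the genes kept without CT 3 and LERKO 2. All intervals span 0, those of Cideb and Dgat2 are the narrowest, and the Plin2 diamond at 0.36 lies to the right of its full value of 0.14.

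Other genes of the same pathways were read from lists, with the 10 genes left out. Of 14 other droplet proteins kept, 6 lay above 0 and 8 below, with a median log2 fold change of −0.0027. Aifm2, also called FSP1, which sits on droplets and guards membranes against lipid peroxidation, was the 1 of them with an unadjusted p under 0.05, which is close to the 6.98% of all probe sets kept. It was at 6.38, 6.48 and 6.25 in the CT mice and at 6.73, 6.74 and 6.59 in the LERKO mice. All CT values were below a signal of 100, and the gene was kept through LERKO 1 and LERKO 2 alone, so that it entered the test through the group in which it is higher. The log2 fold change was 0.32, with groups that did not overlap (SE 0.086, unadjusted p = 0.00830 and adjusted p = 0.703 from limma). Plin3, the widely expressed perilipin, named after its values were seen, had −0.080 (SE 0.094, adjusted p = 0.859 from limma) and −0.15 without CT 3 and LERKO 2. Aup1, a droplet protein of the endoplasmic reticulum, had −0.017 (SE 0.073, adjusted p = 0.970 from limma).

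Of 11 genes of triglyceride synthesis kept, 6 lay above 0 and 5 below, with a median of 0.065. Gpat3 encodes an enzyme of the first step, in which glycerol 3-phosphate receives its fatty acid. It was at 7.03, 7.09 and 6.92 in the CT mice and at 7.32, 7.29 and 7.31 in the LERKO mice, so that the groups separated and the LERKO mice were nearly level. For Gpat3 the log2 fold change was 0.29 (SE 0.071, 95% confidence interval 0.12 to 0.46, unadjusted p = 0.00496 and adjusted p = 0.703 from limma). It was the 1 gene of 11 with an unadjusted p under 0.05, near the 6.98% of all probe sets kept. Gpam, which encodes the mitochondrial enzyme of the same step and was named after its values were seen, had −0.16 (SE 0.086, adjusted p = 0.747 from limma).

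Of 15 other lipid hydrolases and their partners kept, 9 lay above 0 and 6 below, with a median of 0.084 that was 0.010 without CT 2. Abhd6, a hydrolase of monoacylglycerol and lysophospholipids, was at 9.41, 8.74 and 9.45 in the CT mice and at 9.86, 9.55 and 9.68 in the LERKO mice. The groups separated, and CT 2 stood well below the other CT mice. Abhd6 had a log2 fold change of 0.50 (SE 0.20, unadjusted p = 0.0444 and adjusted p = 0.703 from limma), and without CT 2 it was 0.27. Without CT 3 and LERKO 2 together Abhd6 had 0.70 (adjusted p = 0.427 from limma). With all 6 arrays it was the 1 gene of 15 with an unadjusted p under 0.05, near the 6.98% of all probe sets kept. Abhd5, the activator of ATGL, and Mgll, the lipase of the last step, both named after their values were seen, had 0.12 (adjusted p = 0.790) and 0.36 (adjusted p = 0.757 from limma). With 1 array left out, Abhd5 ran from 0.068 without LERKO 3 to 0.16 without LERKO 2, and Mgll from 0.23 without CT 2 to 0.54 without LERKO 2. Without CT 3 and LERKO 2 together Mgll had 0.70 (unadjusted p = 0.00177, adjusted p = 0.392 from limma) and Abhd5 had 0.19.

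Regulators of these genes gave values on both sides of 0. Of 23 kept, 11 lay above 0 and 12 below, with a median of −0.011, and 3 had an unadjusted p under 0.05, beside 6.98% of all probe sets kept. Ppargc1b, a coactivator of mitochondrial and lipogenic genes, was at 7.75, 7.91 and 7.30 in the CT mice and at 6.98, 7.29 and 7.22 in the LERKO mice. Every LERKO mouse was below every CT mouse, by a narrow margin at CT 3, and the log2 fold change was −0.49 (SE 0.17, unadjusted p = 0.0260 and adjusted p = 0.703 from limma). Nr1h4, the bile acid receptor FXR, had 0.19 (SE 0.076, unadjusted p = 0.0427), and Foxo1, a factor of the fasting response, had 0.28 (SE 0.11, unadjusted p = 0.0467), each at an adjusted p of 0.703 from limma. Ppara itself had −0.026 (SE 0.064, adjusted p = 0.946 from limma). Pparg had 0.071 (SE 0.15, adjusted p = 0.932), and Srebf1, the factor of insulin-driven lipid synthesis, had −0.38 (SE 0.17, adjusted p = 0.703 from limma). Without CT 3 and LERKO 2, Ppargc1b had −0.73, Srebf1 −0.61 and Foxo1 0.375, each at an adjusted p of 0.392 from limma, and Pparg had 0.18. Ppara, Pparg and Srebf1 were named after their values were seen.

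A reference list of PPARα targets, genes of fatty acid oxidation for the most part, was read beside the droplet genes because PPARα also acts on several of them. Of 22 genes kept, 21 lay above 0, beside 46.5% of all probe sets kept, with a median log2 fold change of 0.26 beside −0.0099. At an unadjusted p under 0.05, 7 were higher, beside 2.98% of all probe sets kept, and 0 were lower. None passed after adjustment, and the lowest adjusted p was 0.703 from limma. The 1 gene below 0 was Pdk4, at −0.45 (SE 0.29, adjusted p = 0.776 from limma). The list was chosen with earlier results of these data known, so its counts are a description and cannot serve as a test. Vnn1, a pantetheinase of the hepatocyte surface, was at 9.23, 7.87 and 9.55 in the CT mice and at 10.67, 9.69 and 10.65 in the LERKO mice. The LERKO mice lay above the CT mice, with CT 2 far below all others, and the log2 fold change was 1.46 (SE 0.48, unadjusted p = 0.0200 from limma), or 0.95 without CT 2. Cpt2, which passes fatty acids into the mitochondrial matrix, had 0.28 (SE 0.084), and the fatty acid hydroxylases Cyp4a14 and Cyp4a31 had 0.64 (SE 0.22) and 0.60 (SE 0.18), each with groups that did not overlap. Acaa1b, a thiolase of peroxisomes, had 0.47 (SE 0.18) with groups that overlapped. CT 2 was the lowest mouse for 10 of the 22 genes, and without CT 2 the median of the list was 0.22. LERKO 1 was the highest mouse for most of the 22 genes, among them Vnn1, Cpt2, Cyp4a14, Cyp4a31 and Acaa1b. Without LERKO 1 the list median was 0.18, its lowest with 1 array left out. Vnn1 then had 1.29, Cpt2 0.22, Cyp4a14 0.48, Cyp4a31 0.40 and Acaa1b 0.37. Without CT 3 and LERKO 2 together the list median was 0.36. In that fit Vnn1 had 2.11, Cpt2 0.32, Cyp4a14 0.77, Cyp4a31 0.81 and Acaa1b 0.67.

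**Figure D4:**
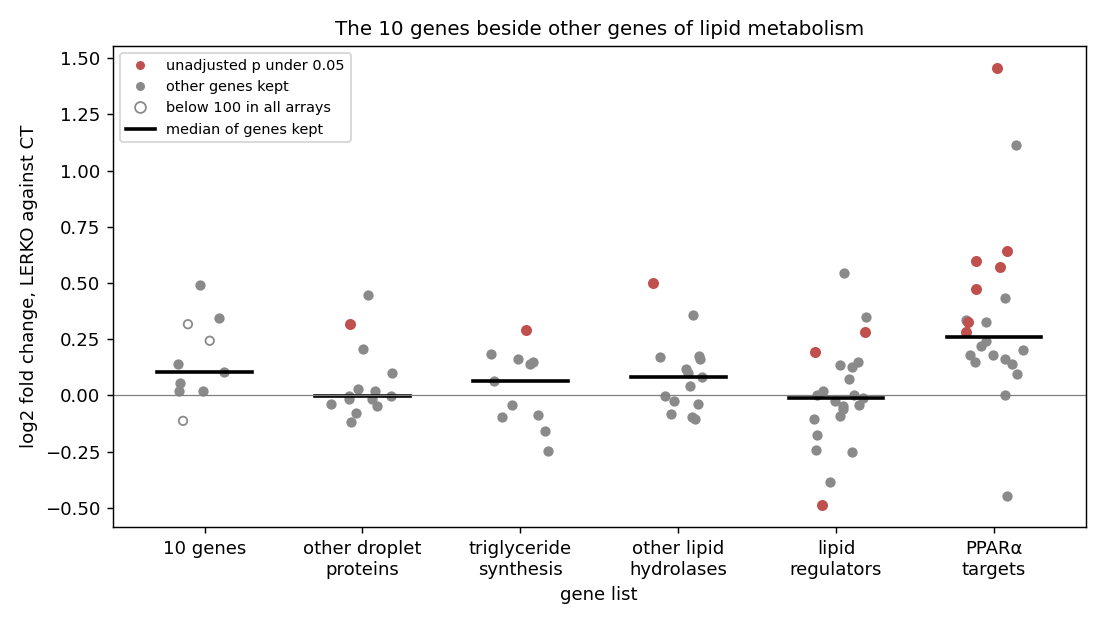
Log2 fold change, LERKO against CT (vertical axis) of the 10 genes and of the genes kept in each of the 5 lists (horizontal axis), 1 point per gene, with the median of the genes kept as a line. Red points have an unadjusted p under 0.05 from limma: 0 among the 10 genes, 1 in each of the first 3 lists, 3 among the regulators and 7 among the PPARα targets, whose median of 0.26 is the highest line.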

How the data were processed

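Total RNA of frozen liver from 3 CT and 3 LERKO mice was hybridised to 1 array per mouse. The authors deposited a log2 signal for each probe set, which they made with RMA (background correction, quantile normalization and summary of probes); its version is not given in the sources used here. The value table holds 35556 probe sets, of which the platform annotation pairs 21218 with 1 gene, 1881 with several and 12457 with none, and genes were named only from the first kind. Every column of values belonged to a sample.

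The study's methods remove genes with signals below 100 across all samples. This was read here as keeping probe sets with at least 1 array at a signal of 100 or more. LERKO was compared with CT by limma 3.58.1 in R 4.3.3, with lmFit and eBayes, genotype as the only term and two-sided tests. Benjamini-Hochberg adjustment ran over the 10633 probe sets kept, at a false discovery rate of 5%. With the wording read as 100 in all 6 arrays, 3 probe sets passed, Esr1 among them (adjusted p = 0.0409 from limma). Genes below 100 in all arrays were read from the same fit without the filter. The fit was tested on simulated data. The 10 genes and the lists were chosen with earlier results of these data known. Besides the 10 genes and Esr1, the text names up to 5 genes of smallest p per list among those with an unadjusted p under 0.05, genes of high level whose groups differ least, and others that it marks as named after their values were seen. Markers of hepatocytes, fat cells, muscle, pancreas, adrenal cortex, Kupffer cells, sinusoidal endothelium, stellate cells and bile duct cells were read as lists, with no test over a list. Promoter windows are RefSeq's. Alternatives changed the filter, variance model, array weights, normalization, test, replicate block and the arrays included. The array's probe coordinates were not used here.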

Additional observations from a re-analysis of the deposited data

How the results depend on the processing

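Each of the 10 genes had an adjusted p of 0.392 or more under every alternative run. Of 153 values of the 10 genes under alternatives, 140 kept their direction and 13 turned. The changes of filter, variance model, replicate block and test leave the log2 fold change itself as it was. A sign could turn only with array weights, another normalization or arrays left out, so the 140 include values whose direction was fixed. Over all probe sets, 0 passed; 3 did with 100 required in all 6 arrays, 1 with an intensity trend in eBayes, and 0 to 1 with 1 array left out. Without CT 3 and LERKO 2 together, 1 of the 7 genes kept (Plin2) had an unadjusted p under 0.05, near the 10.8% of all probe sets kept in that fit. Plin4 did too in the fit without the filter, for which no share of the whole table is given here. Without both arrays the median of the genes kept was 0.23, beside 0.018 to 0.13 with 1 array left out, lowest without CT 2. Pnpla2 turned to −0.0093 with array weights and to −0.12 without both arrays, Pnpla3 to 0.12 and Dgat1 to −0.019 without both. With 1 array left out, the log2 fold changes ran from 0.068 to 0.27 for Plin2, −0.15 to 0.29 for Plin5, −0.016 to 0.039 for Cideb, −0.14 to 0.17 for Pnpla2, −0.35 to 0.14 for Pnpla3, −0.057 to 0.40 for Cidea, −0.032 to 0.72 for G0s2, −0.076 to 0.17 for Pparg and −0.23 to 0.95 for Fitm1. The cause was not tested. The list medians ran from −0.022 to 0.0094 for droplet proteins, −0.040 to 0.098 for triglyceride synthesis (−0.019 without both arrays), 0.010 to 0.098 for hydrolases, −0.063 to 0.015 for regulators and 0.18 to 0.35 for PPARα targets. These settings for lists and for genes outside the 10 were chosen after seeing the data. With the replicate block the median of the genes kept was 0.10, 0 of them had an unadjusted p under 0.05, and 0 probe sets passed. The labels do not say whether the replicate numbers pair the mice. Deviations of same-numbered mice correlated at −0.157, −0.0731 and −0.137, and those of differently numbered mice at 0.00509 to 0.161. With 3 mice in each group these correlations cannot settle whether the mice were paired. Averaging the probe sets of a gene could not differ, since each of the 10 has 1. Genes below a signal of 100 are limited by background.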

Other observations

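A few further genes of lipid metabolism, picked after their values were seen, were at their lowest in CT 2, the mouse that was lowest for 7 of the 10 droplet genes. Elovl3, an elongase of very long fatty acids, was at 4.06 in CT 2 and at 6.34 to 6.97 in the other mice. Fitm1, a protein that helps triglyceride to gather into droplets, was at 6.54 in CT 2 and at 8.01 to 8.89 elsewhere. Its log2 fold change was 0.44 (SE 0.58, adjusted p = 0.876 from limma), and −0.23 without CT 2. Nr0b2, the nuclear receptor SHP, was at 6.04 in CT 2 and at 6.99 to 7.79 elsewhere, and Acot1, a thioesterase of fatty acyl-CoA, was at 5.78 beside 6.64 to 8.53. In the same mouse Hsd17b13, a droplet enzyme of hepatocytes, was at its highest, at 10.55 beside 10.01 to 10.36.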
